A study of Mus musculus with 12 samples.

Results

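The genes described here are 10 genes that mark fat cells of the tissue around blood vessels: Adipoq, Lep, Plin1, Cidec, Pparg, Fabp4, Lpl, Retn, Cfd and Lipe. They were taken as all non-control probes whose gene name on the array is one of these symbols, which gave 13 probes for 10 genes, of 55675 probes and 34796 gene names with a value. RNA of the aorta was measured on 12 one-colour arrays, in 4 groups of 3 samples, on day 3. All mice were of the strain C57BL/6J and, per the methods, adult males, and the sample was a stretch of aorta above the branch of the right renal artery. Mice of the DMSO group received only the vehicle dimethylsulfoxide. Mice of the rapamycin group received the mTOR inhibitor rapamycin at 2 mg/kg/day in the same vehicle. The BA+DMSO group received the lysyl oxidase inhibitor beta-aminopropionitrile (BAPN) at 150 mg/kg/day with angiotensin II (AngII) at 1 µg/kg/min and vehicle, and the BA+rapamycin group received the same 2 agents together with rapamycin. BAPN with AngII is called the challenge here, and all 4 groups share the vehicle. DMSO samples carry titles that start with Pre, while the series record gives day 3 and vehicle for them. Whether fat was trimmed from the aorta before RNA extraction is not given in the sources used here.

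The aorta is wrapped in perivascular adipose tissue, whose fat cells store triglyceride in a droplet and release hormones and fatty acids toward the vessel wall. Pparg, with C/EBP factors, switches on the fat cell programme. Its known targets include the droplet proteins Plin1 and Cidec, the fatty acid carrier Fabp4 and the hormone adiponectin (Adipoq). Lipe, the hormone-sensitive lipase, mobilises the stored fat, and Lpl takes fatty acids from circulating lipoproteins. Adipoq, Lep, Plin1, Cidec and Cfd are close to specific for fat cells, whereas Pparg, Fabp4 and Lpl are also used by endothelial cells, macrophages or muscle.

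The sequences below are what the array carries for 3 of the genes that varied most between samples. For Cidec and Retn they are the second, dimmer probes, while the values given first in the text come from brighter probes of these genes, and the Cidec probe shown was above background on 7 of 12 arrays. Each is a 60-base probe that lies in the coding part of its messenger RNA, with positions on the mouse build mm9 as the files give them.
Adipoq (chr16:23157576-23157635, + strand): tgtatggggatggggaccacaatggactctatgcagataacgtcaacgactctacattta
Cidec (chr6:113378116-113378175, - strand): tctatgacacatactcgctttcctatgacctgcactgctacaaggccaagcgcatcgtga
Retn (chr8:3657312-3657371, + strand): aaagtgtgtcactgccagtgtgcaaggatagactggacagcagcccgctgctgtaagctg

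The genes that moved together most closely across samples are shown next by the 250 bases before their transcription start, from RefSeq on GRCm38.p6. A search covered AGGTCA, the half-site bound by PPAR and RXR, its direct repeat spaced by 1 base (the DR1 element), the C/EBP core TTGCNNAA, the TATA box TATAAA and CCAAT, on both strands, and matches are in capitals. Of 32851 mouse promoters cut to the same length, 14.0% held AGGTCA, 0.0335% the repeat, 9.56% TTGCNNAA, 12.4% TATAAA and 33.8% CCAAT. The half-site is part of the repeat, and the other motifs can overlap each other.
Adipoq (chr16:23146286-23146535, + strand): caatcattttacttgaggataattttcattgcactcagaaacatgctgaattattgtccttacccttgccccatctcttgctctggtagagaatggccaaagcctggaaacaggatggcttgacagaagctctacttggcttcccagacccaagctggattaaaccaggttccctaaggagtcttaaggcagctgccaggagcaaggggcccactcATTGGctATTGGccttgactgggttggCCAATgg
Plin1 (chr7:79732777-79733026, - strand): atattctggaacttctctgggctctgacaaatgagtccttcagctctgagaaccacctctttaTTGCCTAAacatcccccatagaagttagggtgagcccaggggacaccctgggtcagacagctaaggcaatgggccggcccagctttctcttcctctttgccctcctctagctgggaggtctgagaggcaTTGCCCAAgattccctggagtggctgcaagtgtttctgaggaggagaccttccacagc
Cidec (chr6:113434765-113435014, - strand): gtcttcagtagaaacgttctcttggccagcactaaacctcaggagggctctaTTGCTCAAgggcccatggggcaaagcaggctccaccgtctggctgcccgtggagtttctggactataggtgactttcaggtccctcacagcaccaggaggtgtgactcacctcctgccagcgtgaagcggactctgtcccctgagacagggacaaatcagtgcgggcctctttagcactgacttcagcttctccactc
Cfd (chr10:79890603-79890852, + strand): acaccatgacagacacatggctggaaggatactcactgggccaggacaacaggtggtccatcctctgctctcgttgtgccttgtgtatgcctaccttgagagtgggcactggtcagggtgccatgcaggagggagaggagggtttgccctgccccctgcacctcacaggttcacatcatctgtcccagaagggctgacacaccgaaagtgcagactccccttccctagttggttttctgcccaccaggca
Retn (chr8:3655520-3655769, + strand): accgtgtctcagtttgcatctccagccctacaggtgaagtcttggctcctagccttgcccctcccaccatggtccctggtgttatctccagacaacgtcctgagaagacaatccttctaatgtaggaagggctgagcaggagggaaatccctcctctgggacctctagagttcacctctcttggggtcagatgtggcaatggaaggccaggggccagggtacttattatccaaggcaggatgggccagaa
The table of promoters held 8 of the 10 genes. The window of Plin1 had 2 matches to TTGCNNAA, 58 and 187 bases before the start, and the window of the Cidec start shown had 1. The Adipoq window had 3 matches to CCAAT within 34 bases of the start, and those of Cfd and Retn had no match to any of the motifs. AGGTCA occurred in none of the 5 windows shown, and it occurred once in each of 2 of the 3 Pparg windows. These matches are descriptions of the letters and not binding sites.

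Array values are log2 signals minus the 75th percentile of the array, so a value of 0 marks a probe at that percentile, and values of different probes are not compared. A probe entered the tests where 1 group or more had it well above background on each of its 3 arrays, which 27801 probes met. The 75th percentile itself, which tracks how bright an array is, stood at 256 ± 30.7 intensity units in DMSO, 289 ± 42.6 in rapamycin, 152 ± 86.0 with BA+DMSO and 97.3 ± 19.6 with BA+rapamycin (mean ± SD, n = 3 each), and no spot was saturated. All DMSO arrays and 1 rapamycin array lay on 1 slide, and the other 8 arrays on the second. Slide and challenge are thus wholly confounded between DMSO and BA+DMSO, and only the rapamycin group spans both slides. Most titles also hold a date whose meaning the labels do not give. DMSO replicates 2 and 3 share 1 date with rapamycin replicates 2 and 3, DMSO replicate 1 shares another with BA+rapamycin replicate 3, BA+rapamycin replicate 1 shares a further one with BA+DMSO replicate 1, and 2 BA+DMSO titles have none. The labels do not state that the arrays of a group came from separate mice, so p-values measure the spread between these samples, which may be technical. In a piece of whole aorta, fewer fat cells and less RNA per fat cell cannot be told apart.

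Of the 10 genes, 8 were well above background on all 12 arrays: Adipoq, Retn, Cfd, Fabp4, Lpl, Plin1, Cidec and Pparg. Lep, the hormone that reports fat stores to the brain, was not well above background on any of the 12 arrays, with processed signals of 3.65 to 4.84 intensity units. Lipe was well above background on 6 of 12 arrays, 2 of 3 in DMSO, 2 of 3 in rapamycin, 1 of 3 with BA+DMSO and 1 of 3 with BA+rapamycin, and did not enter the test. Of the genes close to specific for fat cells, Adipoq, Plin1, Cidec and Cfd were thus detected on every array and Lep on none. Among 14 further genes enriched in fat cells, 8 to 11 were above background on any 1 array, and 8 of them (Adig, Car3, Gpd1, Adrb3, Plin4, Sncg, Pcx and Aoc3) were so on all 12.

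Adipoq had the widest swings among the hormones. Its values were 0.51, -0.74 and -0.20 in DMSO, 0.18, -1.39 and 1.15 in rapamycin, 1.90, 2.98 and 0.92 with BA+DMSO and 3.70, -0.49 and 1.75 with BA+rapamycin. Every BA+DMSO sample lay above every DMSO sample, while the BA+rapamycin samples ran from the level of DMSO to the highest value of the series. The lowest and the highest of the 12 samples were 33.9-fold apart. The group means were -0.14 ± 0.63 in DMSO, -0.02 ± 1.28 in rapamycin, 1.65 ± 2.10 with BA+rapamycin and 1.93 ± 1.03 in BA+DMSO (mean ± SD, n = 3 each), and no neighbours in this order differed beyond the spread between samples. BA+DMSO exceeded DMSO by 2.08 (SE 0.96), a 4.21-fold difference with an adjusted p of 0.149 in limma.

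Cfd, the complement protease factor D that fat cells secrete as adipsin, had a similar layout over the samples. It stood at 4.56, 3.65 and 4.42 in DMSO, 3.97, 2.69 and 4.94 in rapamycin, 5.49, 6.94 and 4.57 with BA+DMSO and 7.18, 4.06 and 5.61 with BA+rapamycin. The BA+DMSO and DMSO samples did not overlap, although the closest pair was only 4.57 against 4.56. The difference was 1.46 (SE 0.82, limma adjusted p = 0.227). Retn, which encodes resistin, stood at 1.24, 0.19 and 0.02 in DMSO and at 1.82, 2.79 and 0.78 in BA+DMSO. It stood at 0.64, -0.90 and 0.86 in rapamycin and at 2.97, 0.88 and 1.72 with BA+rapamycin, so the BA+rapamycin samples lay above the rapamycin samples, the closest pair being 0.88 and 0.86. That difference was 1.65 (SE 0.66, limma adjusted p = 0.0644), and the second Retn probe gave 1.48 with overlapping groups.

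**Figure D1:**
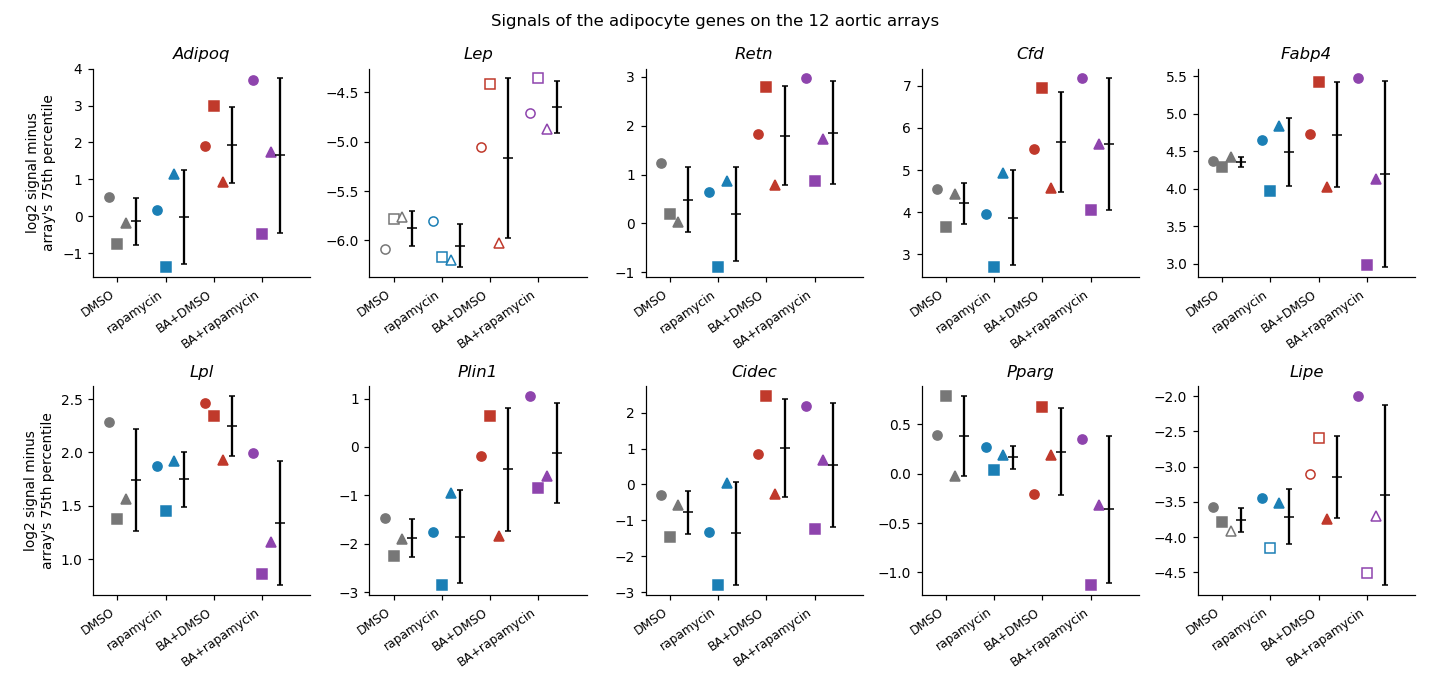
Signal of each of the 10 genes by its brightest probe, as log2 minus the 75th percentile of the array (vertical axis, own scale in each panel), in the 4 groups (horizontal axis). Circles, squares and triangles are replicates 1, 2 and 3, open symbols were not well above background, and black bars are mean ± SD (n = 3). Adipoq spans -1.39 to 3.70 over the 12 samples, and in BA+rapamycin the circle is the highest and the square the lowest of its group for the 8 genes measured on every array.

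Both droplet proteins were also spread widely within groups. Plin1, the coat protein that controls access of lipases to the droplet, was at -1.48, -2.26 and -1.91 in DMSO and at -1.77, -2.86 and -0.95 in rapamycin. It was at -0.18, 0.64 and -1.85 with BA+DMSO and at 1.06, -0.84 and -0.61 with BA+rapamycin. BA+DMSO replicate 3 sat among the DMSO samples, whereas all BA+rapamycin samples exceeded all rapamycin samples. The difference between these last groups, 1.73 (SE 0.69), had the lowest adjusted p of any of the genes in any contrast, 0.0629 in limma. Cidec, which fuses small droplets into large ones, was at -0.29, -1.46 and -0.58 in DMSO, -1.33, -2.81 and 0.05 in rapamycin, 0.86, 2.47 and -0.27 with BA+DMSO and 2.19, -1.24 and 0.67 with BA+rapamycin. Its lowest BA+DMSO sample, -0.27, barely cleared the highest DMSO sample, -0.29, and the mean difference was 1.80 (SE 0.95, limma adjusted p = 0.200). A second Cidec probe was above background on all 3 arrays only in BA+DMSO and on 1 of 3 in DMSO, so it entered the tests through the group where it is high, and its groups overlapped. Lipe, which releases fatty acids from the droplet, had its highest value in BA+rapamycin replicate 1 (-2.00) and was not well above background in the other 2 samples of that group.

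The genes of fatty acid handling and the regulator moved less. Fabp4 was within 4.29 to 4.42 in the 3 DMSO samples, at 4.65, 3.97 and 4.84 in rapamycin, at 4.72, 5.43 and 4.02 with BA+DMSO and at 5.48, 2.98 and 4.13 with BA+rapamycin. The groups overlapped in every contrast, but the SD grew from 0.07 in DMSO to 1.25 with BA+rapamycin (n = 3 each, not tested). Pparg was at 0.39, 0.78 and -0.03 in DMSO, 0.27, 0.04 and 0.19 in rapamycin, -0.20, 0.68 and 0.19 with BA+DMSO and 0.35, -1.13 and -0.31 with BA+rapamycin. It was the only one of the 8 genes below 0 in the challenge, at -0.16 (SE 0.36), with an adjusted p of 0.780 in limma.

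Lpl had the lowest difference of the 8 genes when rapamycin was added to the challenge. It was at 2.29, 1.37 and 1.57 in DMSO, 1.87, 1.45 and 1.92 in rapamycin, 2.47, 2.34 and 1.93 with BA+DMSO and 1.99, 0.86 and 1.16 with BA+rapamycin. BA+rapamycin minus BA+DMSO was -0.91 (SE 0.32, unadjusted p = 0.0167 and adjusted p = 0.186 in limma), with 1 BA+rapamycin sample inside the BA+DMSO range. A second probe stood at 0.17, -0.15 and -0.03 with BA+DMSO and at -0.47, -1.74 and -1.30 with BA+rapamycin, with no overlap, a difference of -1.17 (SE 0.32) and an adjusted p of 0.118. Neither probe passed the threshold.

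Set side by side, the 5 contrasts gave no call for any of the 8 tested genes at a limma adjusted p under 0.05. For the challenge (BA+DMSO minus DMSO), 7 of 8 differences were above 0, as were 13099 of 27801 over all tested probes. The signs of the 8 genes are not separate observations, since most of these genes moved together across the samples. Their median difference was 1.36 against -0.04 over all tested probes, and 3 genes (Adipoq, Cfd and Cidec) did not overlap between groups. Over all probes tested, 20.5% were called in this contrast and 34.6% did not overlap. By the brightest probes, no gene reached an unadjusted p under 0.05 here, the lowest being 0.0536 for Adipoq. The second Cidec probe had an unadjusted p of 0.0285 (adjusted p = 0.0981), with 2 of 3 DMSO arrays not above background. For the challenge under rapamycin, the BA+rapamycin samples against those given rapamycin alone, 41.7% of all probes were called and 65.9% did not overlap, while 0 of 8 genes were called and 2, Plin1 and Retn, did not overlap. The differences were 1.65 to 1.90 for Adipoq, Cfd, Cidec, Plin1 and Retn and -0.53 to -0.29 for Pparg, Lpl and Fabp4. The median was 1.66 against -0.08 over all tested probes, and by their brightest probes 2 of the 8, Plin1 and Retn, had an unadjusted p under 0.05. The second Lpl probe was lower, at -0.77 (SE 0.32, unadjusted p = 0.0346, adjusted p = 0.0728).

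For rapamycin given during the challenge (BA+rapamycin against BA+DMSO), the differences ran from -0.91 for Lpl to 0.33 for Plin1 with a median of -0.38, and 6 of 8 were below 0. Over all tested probes, the median was -0.0096 and 13704 of 27801 were above 0. In this contrast 0.281% of probes were called and 14.5% did not overlap, against 0 and 0 of the 8 genes by their brightest probes. Rapamycin alone (rapamycin minus DMSO) gave differences of -0.58 for Cidec to 0.12 for Fabp4, none called where 0.0036% of probes were, and none without overlap where 21.5% were. By the brightest probes, no unadjusted p in that contrast was below 0.549. The interaction, rapamycin under challenge minus rapamycin alone, was -0.40 (SE 1.36) for Adipoq and -0.91 (SE 0.45) for Lpl, and 0% of the probes tested were called in it, the lowest adjusted p of the 8 genes being 0.737. At an unadjusted p under 0.05, 1702 of 27801 probes and 0 of the 8 genes by their brightest probes passed in the interaction, while the second Lpl probe had -1.20 (SE 0.45, unadjusted p = 0.0218, adjusted p = 0.737). The contrasts share their groups, so their values are not independent of each other.

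**Figure D2:**
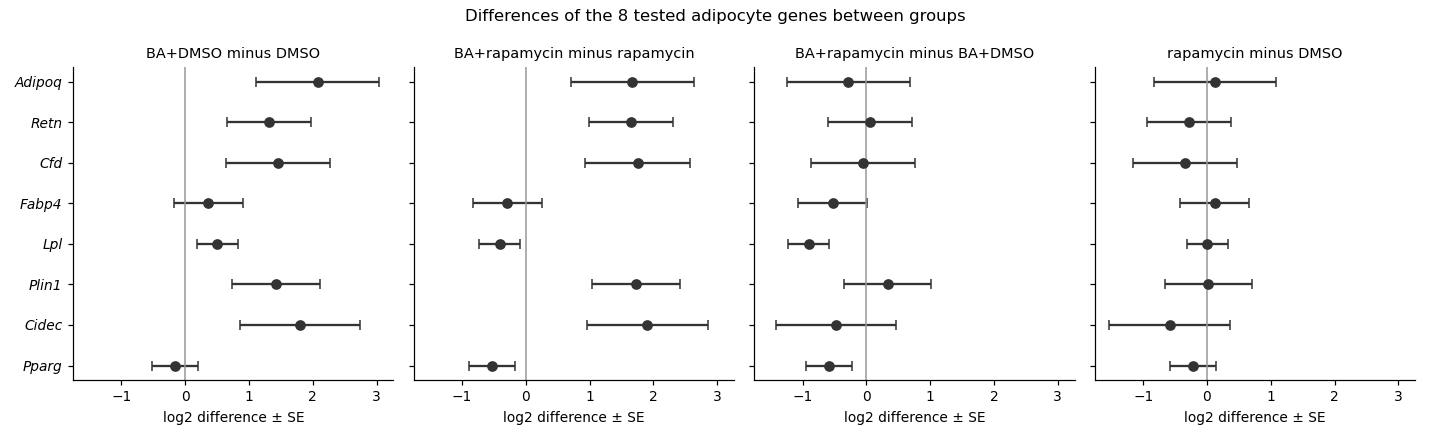
Difference between groups (horizontal axis, log2, bars are the SE of the limma model over 12 arrays) for the 8 tested genes (vertical axis) in 4 contrasts. Adipoq, Retn, Cfd, Plin1 and Cidec lie between 1.31 and 2.08 in the first panel and between 1.65 and 1.90 in the second, with no gene called in any panel.

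Slide, brightness and title date bear on these contrasts. With slide as a fixed block, the challenge rests on the rapamycin arrays that lie on both slides, and Adipoq stood at 2.38 with an adjusted p of 0.656, when only 15 of 27801 probes were called. Within the second slide alone, the challenge under rapamycin was 1.77 for Adipoq, 1.87 for Retn, 1.77 for Plin1, 1.92 for Cidec and 1.80 for Cfd over 5 arrays, with adjusted p of 0.128 to 0.303. The contrast of rapamycin under challenge lies wholly within that slide. With array brightness as a covariate, the challenge was 2.01 for Adipoq, 0.90 for Retn, 1.04 for Cfd, 0.70 for Plin1 and 1.35 for Cidec, with adjusted p of 0.310 to 0.597, and the challenge under rapamycin was 0.47 for Plin1 (adjusted p = 0.843) and was 1.56 for Adipoq (0.640). With the title date as a random block, chosen after seeing the data, no gene was called, the challenge was 1.53 for Adipoq (adjusted p = 0.329), and Adipoq and Cfd turned from below to above 0 for rapamycin under challenge, at 0.15 and 0.33. Over the 4 arrays of DMSO and rapamycin that share a date, rapamycin alone was 0.35 for Adipoq and -0.36 for Cidec, with no gene called.

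The spread between samples of the same group was wide for most of the genes. The SD within groups was 1.37 for Adipoq, 1.35 for Cidec, 1.16 for Cfd, 0.97 for Plin1, 0.93 for Retn and 0.75 for Fabp4, against a median of 0.34 over the tested probes. Adipoq was at the 99.3rd percentile of that distribution and Cidec likewise, Cfd at the 98.7th, Plin1 at the 97.3rd, Retn at the 97.0th and Fabp4 at the 93.5th. Pparg, at 0.48, and Lpl, at 0.42, were at the 73.8th and 65.5th percentiles. The range over the 12 samples was 38.7-fold for Cidec, 22.5-fold for Cfd, 15.1-fold for Plin1 and 14.6-fold for Retn, and 3.04-fold for Lpl.

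The same samples were high or low for nearly every gene. BA+rapamycin replicate 1 was the highest of its group for 8 of 8 genes, and BA+rapamycin replicate 2 the lowest for 8 of 8. Rapamycin replicate 2 was the lowest of its group for 8 of 8, and rapamycin replicate 3 the highest for 7. In BA+DMSO, replicate 2 was the highest for 7 genes and replicate 3 the lowest for 7, and in DMSO replicate 1 was the highest for 6 and replicate 2 the lowest for 6. Across all 12 samples, BA+DMSO replicate 2 was among the top 3 for 8 of 8 genes and BA+rapamycin replicate 1 for 6. The 75th percentile was 78.1 intensity units on BA+DMSO replicate 2, 246 on BA+DMSO replicate 3 and 109 on BA+rapamycin replicate 1. It was 74.6 on BA+rapamycin replicate 2, the dimmest of the 12 arrays, and 108 on BA+rapamycin replicate 3. Dim arrays thus held both high and low values of these genes. In the fit with array weights, BA+DMSO replicates 2 and 3 had the lowest weights of the 12 arrays, 0.108 and 0.203.

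**Figure D3:**
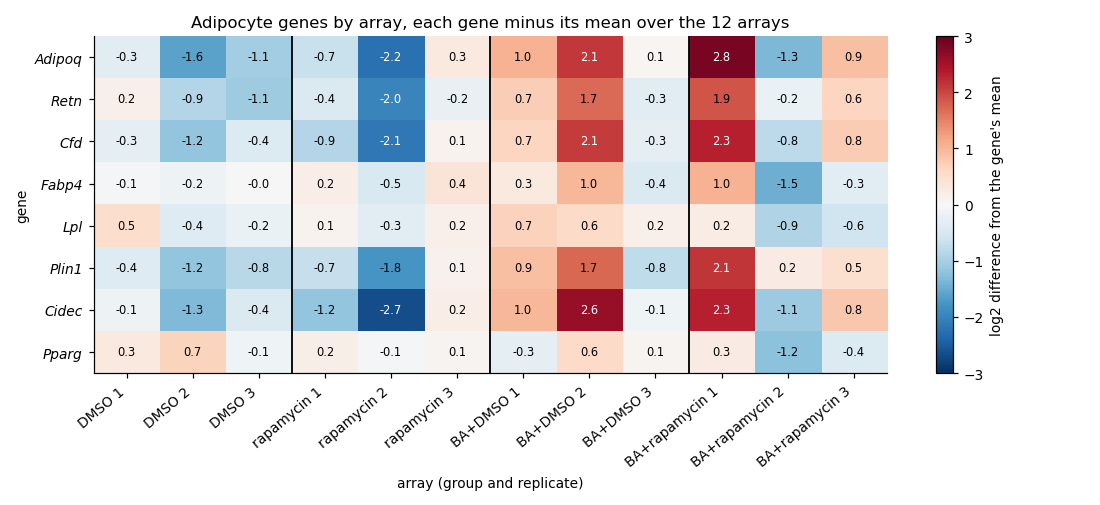
Each cell is the log2 signal of a gene (rows) on an array (columns, in groups divided by black lines) minus that gene's mean over the 12 arrays, from blue (low) to red (high). The columns of BA+DMSO replicate 2 and BA+rapamycin replicate 1 are red for Adipoq, Retn, Cfd, Fabp4, Lpl, Plin1 and Cidec, and that of rapamycin replicate 2 is blue for these genes.

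With the group means removed, Adipoq correlated across the 12 arrays with Cfd at Pearson's r = 0.98 (Spearman's rho 0.95), with Cidec at 0.98 (0.94), with Fabp4 at 0.95 (0.92), with Retn at 0.93 (0.94), with Plin1 at 0.89 (0.91), with Lpl at 0.86 (0.85) and with Pparg at 0.69 (0.68). The closest pair was Cidec and Cfd, at r = 0.996 with group means removed and 0.992 before that. These are descriptions over arrays that share their dissection, labelling and scaling, and no test was made. Before the group means were removed, r with Adipoq was 0.98 for Cfd and 0.97 for Cidec, and without BA+rapamycin replicate 1 and BA+DMSO replicate 2, the arrays farthest from the Adipoq median, it was 0.95 for both. For Fabp4 it fell from 0.74 to 0.44 without these arrays, and for Pparg it went from 0.23 to -0.09.

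Few other probes had this profile. Of 27790 tested probes of other genes, 11 had r above 0.9 with the mean profile of the 8 genes over the 12 arrays, and 20 did so with group means removed. The 10 genes most alike over the 12 arrays were Adig (r = 0.94), Mcpt4 (0.94), Dgat2 (0.94), Slc36a2 (0.93), Apoc1 (0.93), Gpd1 (0.92), Tmem45b (0.92), Car3 (0.91), Nnat (0.91) and Cyp2f2 (0.91). Adig encodes a small protein of fat cells, Dgat2 the enzyme of the last step of triglyceride synthesis, Gpd1 the enzyme that makes its glycerol backbone, and Mcpt4 a protease of connective tissue mast cells. With group means removed, the 10 were Apoc1, Hp, Col16a1, Mcpt4, Adig, Car3, Thrsp, Lrg1, Cyp2f2 and Pdss2, at r of 0.93 to 0.98. Among these, Hp (haptoglobin, 2.87, limma adjusted p = 0.0242), Lrg1 (2.61, 0.0142) and Col16a1 (1.28, 0.00970) were called higher in BA+DMSO than in DMSO. The rest of these 10 were not called, and 20.5% of all tested probes were called in this contrast. None of the 10 most alike over the 12 arrays was called in it, the lowest limma adjusted p being 0.0853 for Slc36a2.

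Other genes of fat cells, taken from 8 lists written for this purpose, were called in both directions, together at about the share of all probes. Counting each gene once, 27 of 104 tested (26%) were called for the challenge, where 20.5% of all probes were, and 42 of 104 (40.4%) for the challenge under rapamycin, where 41.7% were. Many of these calls depended on the fit: of 43 calls named by the rule, 23 were lost with slide as a fixed block and 27 with array brightness as a covariate, and 1 more reversed. Of 8 tested genes enriched in fat cells, 2 were called for the challenge, both lower, close to the share over all probes, and the list median was 0.62. Plin4, a droplet coat protein also made in muscle, was at 6.50, 6.75 and 6.60 in DMSO and at 4.21, 6.15 and 5.24 in BA+DMSO, giving a difference of -1.41 (SE 0.38, limma adjusted p = 0.0254). Without BA+DMSO replicate 1, or without any 1 DMSO sample, Plin4 was not called, at -1.47 to -0.92. Aoc3, an amine oxidase that smooth muscle also makes in quantity, was at 5.08, 5.51 and 5.43 in DMSO and at 3.23, 3.86 and 4.42 in BA+DMSO, 2.84-fold lower (adjusted p = 0.00450). Under rapamycin the challenge left 5 of the 8 called (62.5%, against 41.7% of all probes), Plin4 (-1.67) and Aoc3 (-1.80) lower and 3 higher. The higher ones were Car3 (2.25, limma adjusted p = 0.0305; 1.60 and not called without rapamycin replicate 2, 1.64 without BA+rapamycin replicate 1, and also not called without rapamycin replicate 1 or BA+rapamycin replicate 3), Adrb3, the beta receptor that starts lipolysis (2.24, 0.0203), which was not called without BA+rapamycin replicate 1 (1.59) or rapamycin replicate 2 (1.94), and the pyruvate carboxylase gene Pcx (1.11, 0.0331), named after its value was seen.

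Among 12 tested adipokines and receptors, 3 were called higher and 1 lower for the challenge. Angptl4, which inhibits Lpl, was at -0.88, -0.96 and 1.94 in DMSO and at 4.16, 3.72 and 3.60 in BA+DMSO, 13.9-fold higher (limma adjusted p = 0.00437), and 26.8-fold higher without DMSO replicate 3, the one high DMSO sample. Cmklr1, the chemerin receptor, was at least 3.47-fold higher, since no DMSO array was above background. It entered the tests through the challenged groups, where it is high. For this fold, each DMSO signal under the lowest signal counted as above background on its array was raised to that signal. The BA+DMSO mean of Cmklr1 was then compared with the mean of these DMSO values. Lepr, the leptin receptor, was higher by 1.35 (adjusted p = 0.0170) by its brightest probe and -0.22 by the mean of its probes, so its probes disagree, and it was not called without DMSO replicate 1 or 2 (1.33 and 1.31). Rarres2, which encodes chemerin, was the 1 lower gene, named after its value was seen, at 6.86, 6.83 and 6.78 in DMSO and at 5.15, 5.85 and 6.27 in BA+DMSO (-1.07, adjusted p = 0.0122). Under rapamycin the challenge left 4 of these 12 called higher and 5 lower, with Retnla at -2.15 (adjusted p = 0.00241), Cmklr1 at 2.08 (0.00308) and Angptl4 at 2.07 (0.0336). This last call was lost without rapamycin replicate 1 or 2 or any 1 BA+rapamycin sample, at 1.66 to 2.32. The medians of this list were 0.25 and -0.33, and the shares called were 33.3% and 75%, against 20.5% and 41.7% of all probes.

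Of 21 tested genes of lipid uptake and storage, 1 was called higher and 4 lower for the challenge, with a median of 0.11 and a share of 23.8% against the 20.5% of all probes. Cd36, a fatty acid transporter of fat cells, macrophages and endothelium, was higher by 1.52 (limma adjusted p = 0.0248), and not called without DMSO replicate 2 or 3 or BA+DMSO replicate 1 or 2, at 1.33 to 1.54. Vldlr, a lipoprotein receptor, was at 4.56, 4.70 and 4.57 in DMSO and at 2.19, 2.96 and 3.19 in BA+DMSO, giving a difference of -1.83 (adjusted p = 0.000806), and Lpin1, a phosphatidate phosphatase, differed by -1.75 (adjusted p = 0.00787). Under rapamycin 3 were called higher and 5 lower, 38.1% against 41.7% of all probes, and Vldlr differed by -2.38 and Lpin1 by -1.58. Of 12 genes of lipolysis and its control, 1 rose and 1 fell for the challenge: Prkar2b, a regulatory subunit of protein kinase A (1.18, limma adjusted p = 0.0384), and Npr1, the receptor of atrial natriuretic peptide (-0.97, 0.0174). Prkar2b lost its call without any 1 DMSO or rapamycin sample or BA+DMSO replicate 1 or 2 (0.98 to 1.26), and Npr1 without DMSO replicate 2 (-1.04) or 3 (-0.88). Under rapamycin 1 rose and 2 fell, Adrb3 with Npr1 (-1.64) and Npr3, which was above background on 1 of 3 BA+rapamycin arrays. The list medians were 0.16 and -0.27, and 16.7% and 25% of the list were called, against 20.5% and 41.7% of all probes.

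Of 14 genes of fatty acid synthesis, the elongase Elovl6 was called higher (1.18 for the challenge and 1.39 under rapamycin). Me1, the malic enzyme, was called lower (-0.72 and -0.87), but not for the challenge without DMSO replicate 2 or 3, at -0.67 and -0.74. These calls are 14.3% of the list in each contrast, against 20.5% and 41.7% of all probes, and the medians were -0.09 and 0.01. Of 12 genes of insulin response, 3 were called lower and none higher for the challenge, and 4 lower and 1 higher under rapamycin. These are 25% and 41.7% of the list, near the 20.5% and 41.7% of all probes, and the medians were -0.68 and -0.59. Slc2a4, the insulin-responsive glucose transporter of fat and muscle, was at 2.88, 3.10 and 2.83 in DMSO and at 0.80, 2.00 and 1.27 in BA+DMSO, giving a difference of -1.58 (limma adjusted p = 0.00509). Foxo1, a factor that insulin signalling holds out of the nucleus, differed by -0.69 and was not called without DMSO replicate 2 or 3 or BA+DMSO replicate 1 (-0.69 to -0.62). Under rapamycin Slc2a4 (-1.48), Irs1 (-1.13) and Foxo1 (-0.97) led.

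Of 15 adipogenic regulators, 1 was called higher and 3 lower for the challenge. Cebpa, the C/EBP factor that acts with Pparg, was at -2.33, -2.38 and -2.44 in DMSO and at 0.40, -0.73 and -1.18 in BA+DMSO, giving a difference of 1.88 (limma adjusted p = 0.00347). Klf15, a glucocorticoid-responsive factor, fell by 2.28 on the log2 scale (adjusted p = 0.00416), and by 4.66 under rapamycin, where 1 of 3 BA+rapamycin arrays was above background. Ebf1 (-1.35) fell in the challenge and Zfp423 (-1.41) with Ebf1 (-1.65) under rapamycin, when 2 were called higher and 3 lower. The list medians were 0.09 and 0.32, and the shares called were 26.7% and 33.3%, against 20.5% and 41.7% of all probes.

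Of 12 genes of brown fat cells, 2 were called higher and 4 lower for the challenge, and 2 and 5 under rapamycin, with medians of -0.44 and -0.09. These are 50% and 58.3% of the list, against 20.5% and 41.7% of all probes. Ucp1, the uncoupling protein of brown fat, was above background on 0 of 3 DMSO, 1 of 3 rapamycin, 3 of 3 BA+DMSO and 1 of 3 BA+rapamycin arrays, and so entered the tests only through BA+DMSO, where it is high. It was at least 6.47-fold higher in BA+DMSO than in DMSO (limma adjusted p = 0.0143), and was not called without DMSO replicate 2 or BA+DMSO replicate 1, with adjusted p of 0.0582 and 0.0557. Its fitted difference, which is no bound, went from 4.32 to 5.14 without BA+DMSO replicate 3. Dio2, the deiodinase that activates thyroid hormone, was higher by 1.72 and 1.73 in the contrasts with the challenge. Fabp3 differed by -1.52 in the first and was not called without any 1 DMSO sample (-1.55 to -1.49). In the second, Cidea, a droplet protein, differed by -2.61 (-2.00 without BA+rapamycin replicate 2), and Cpt1b, the muscle form of the enzyme that takes fatty acids into mitochondria, by 1.73 (limma adjusted p = 0.0129). Cpt1b was not called without rapamycin replicate 3 (1.49) and was -0.015 with brightness as a covariate. No gene of these 8 lists was called for rapamycin under challenge, rapamycin alone or the interaction.

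**Figure D4:**
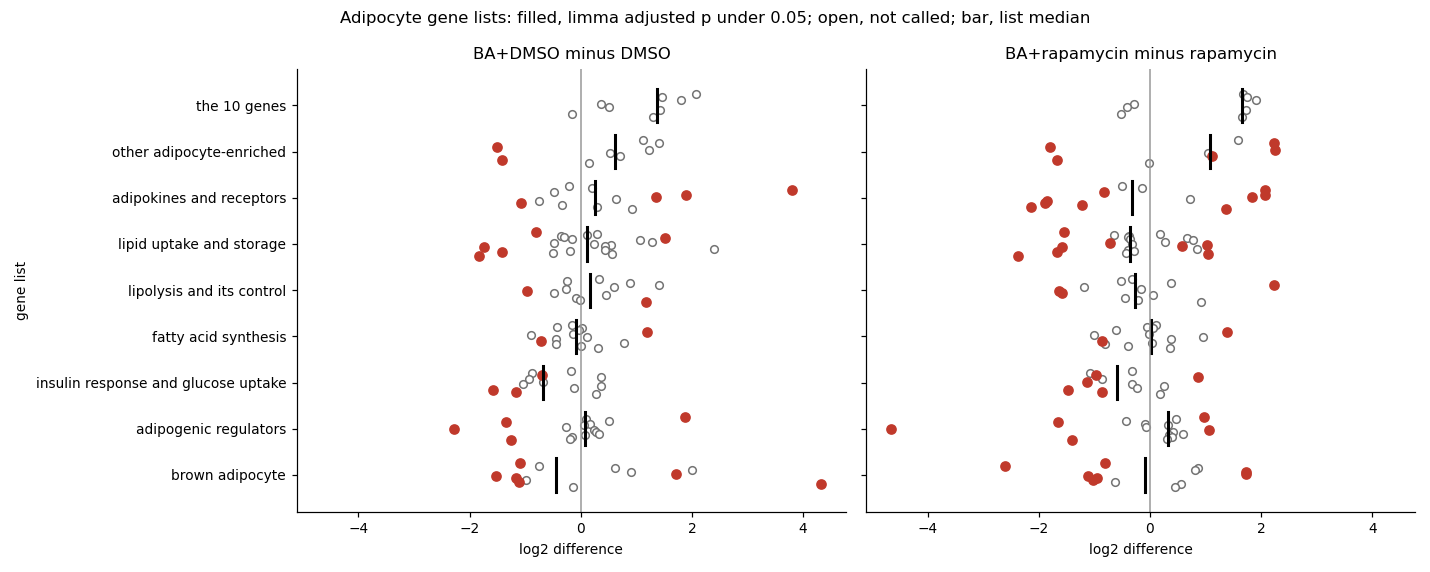
Difference between groups (horizontal axis, log2) of each tested gene in 9 lists (vertical axis), for BA+DMSO minus DMSO and for BA+rapamycin minus rapamycin. Filled circles had a limma adjusted p under 0.05 and bars are list medians. The 8 tested of the 10 genes have the highest medians, 1.36 and 1.66, and no filled circle. In the second panel each of the other lists has filled circles on both sides of 0.

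Among markers of other cells, the macrophage, mesothelial and erythroid lists had the highest shares called for the challenge. Summed signals, in multiples of the 75th percentile of the array, of 8 macrophage markers were 22.7 to 42.7 in DMSO and 64.1 to 170 with BA+DMSO and 8 of 8 were called higher, where 20.5% of all probes were called in either direction. The same sum for 5 mesothelial markers was 0.548 to 3.34 in DMSO, 2.43 to 3.99 in rapamycin, 6.67 to 14.5 with BA+DMSO and 1.49 to 11.6 with BA+rapamycin. Of these, 4 of 5 were called higher for the challenge and 0 of 5 under rapamycin, and 1 of the 4, Lrrn4, entered the tests only through BA+DMSO, where it is high. For 10 fibroblast and preadipocyte markers 5 were called higher (median 0.99), for 8 endothelial markers 3 (median 0.57), for 4 erythroid markers 4 (median 1.87), for 3 lymphocyte markers 2 (median 0.89), for 4 neutrophil markers 1 (median 1.69) and for 4 nerve markers 1 (median 0.22), the last 2 near the share over all probes. For 8 smooth muscle markers 2 were called lower (median -0.58), near that share, and for 3 skeletal muscle markers none was called (median -1.05). For the challenge under rapamycin, where 41.7% of all probes were called, the counts were 5 of 8 for macrophage, 4 of 10 for fibroblast, 3 of 4 for erythroid, 2 of 3 for lymphocyte, 1 of 4 for neutrophil and 1 of 4 for nerve markers, all higher. They were 1 higher and 2 lower of 8 for endothelial, 1 higher and 3 lower of 8 for smooth muscle and 1 lower of 3 for skeletal muscle markers. Of 8 markers of kidney, liver and adrenal gland, 0 or 1 were above background on any array. Summed signals of the 10 genes themselves were 38.8 to 55.5 in DMSO, 27.2 to 69.9 in rapamycin, 49.7 to 195 with BA+DMSO and 30.5 to 223 with BA+rapamycin. These sums add unlogged signals, so Cfd and Fabp4, whose probes have the highest signals of the 10 genes, make up most of them. The part of these other cells in the differences above was not tested.

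Leaving out single arrays changed several calls. Without BA+rapamycin replicate 2, the sample with the lowest values of its group, 4 of 8 genes were called for the challenge under rapamycin: Adipoq (2.74, limma adjusted p = 0.0366), Cfd (2.53, 0.0389), Cidec (2.79, 0.0458) and Retn (2.14, 0.0444). In that fit 7876 of 27801 probes were called in all, and the sample left out holds the lowest value of its group for each of these genes. Without BA+DMSO replicate 3, Plin1 was called for the challenge (2.11, adjusted p = 0.0266), as were 10574 of 27801 probes. Without BA+DMSO replicate 2 or without BA+DMSO replicate 3, Plin1 and Retn were called for the challenge under rapamycin with their differences as before, 1.73 and 1.65, since those arrays enter that contrast only through the shared variance, and 15816 and 14060 probes were then called in all. The count of called probes over all genes also depended on single arrays, and without BA+DMSO replicate 2 it went from 78 to 11092 for rapamycin under challenge, with none of the 8 genes among them.

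**Figure D5:**
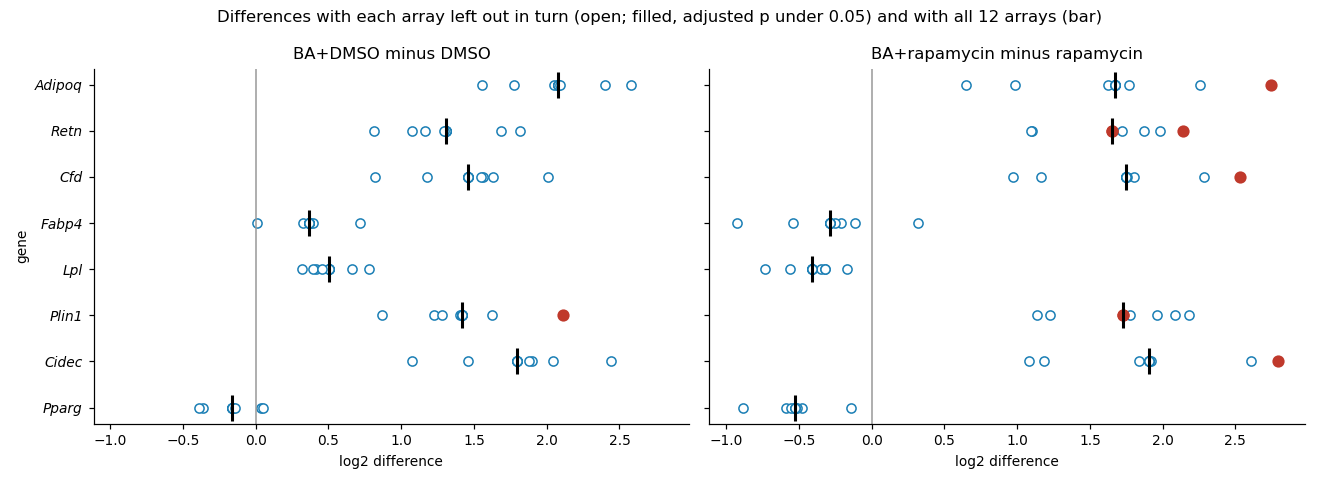
Difference between groups (horizontal axis, log2) of the 8 tested genes (vertical axis) with each of the 12 arrays left out in turn (circles, filled where the limma adjusted p was under 0.05) and with all arrays (black bars). Adipoq stays above 0 in both panels, and filled circles appear for Plin1 in the first panel and for Adipoq, Retn, Cfd, Plin1 and Cidec in the second.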

How the data were processed

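RNA of 12 aortic samples had been labelled with Cy3 and hybridised to Agilent 60-mer mouse arrays. Per the file headers, the scanner files give the processed signal of each spot as intensity, made with Feature Extraction 10.7.1.1 (9.5.1.1 in the submitters' processing notes). This signal is background-subtracted, and the deposited outlier and above-background flags were used as given. The deposited value table, whose intensity values are quantile-normalized across arrays, served as an alternative. Of 62976 spots, 3671 were controls. Outlier spots were left out, spots averaged per probe, log2 taken and the 75th percentile of each array subtracted. Probes needed at least 0.5 of their spots well above background on all 3 arrays of a group. limma 3.58.1 in R 4.3.3 fitted 4 group means over 12 arrays, with two-sided tests and Benjamini-Hochberg adjustment within each contrast (threshold 0.05). In simulated data, log2 differences of 1.5 added to random probes were called in 60% (higher) and 70% (lower) of cases. Differences of 3 were called in 92% and 98%, with 14 false calls. The simulated noise was independent and held no slide or brightness effect, so recovery for probes as variable as most of these genes was not measured. The text names all 10 genes, up to 3 called, non-overlapping genes with the largest difference per fat cell list and contrast (markers of other cells are given as counts), and the 10 genes most like the mean profile, except for 1 gene not reported here. The genes and lists were chosen with earlier results of these data known. Arrays give no counts, so their number limits the precision. Alternatives were other scalings, filters, blocks (slide, title number and title date), weights and left-out arrays. Promoter and probe sequences were read from RefSeq tables and the scanner files.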

Additional observations from a re-analysis of the deposited data

How the results depend on the processing

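Of 1064 recomputed values of the 8 tested genes, over 40 results, 984 kept their direction and side of the threshold, 17 were newly called and 63 reversed. Of 1132 values of called list genes, over 43 results and chosen for this after seeing the data, 1006 did so, 124 lost the call and 2 reversed. Of those lost, 23 were with slide as a fixed block, 27 with brightness as a covariate, 15 with only the groups of the contrast, 8 of 22 on the second slide alone, and 9 and 7 without DMSO replicate 2 and 3. The causes were not tested. For the challenge, 1 gene was called with array weights (Plin1; 12803 of 27801 probes in all), and 0 to 1 with single arrays left out. For the challenge under rapamycin, 1 was called with normexp (Plin1; 17357 probes in all), 1 without a filter (Lep, above background nowhere; 29650 of 55675 probes), 5 with array weights (Adipoq, Cfd, Cidec, Plin1, Retn; 17545 probes), and 0 to 4 with arrays left out. For rapamycin under challenge, 1 was called with array weights (Lpl; 7094 probes, against 78 without weights). For rapamycin alone and the interaction, 0 were called under any alternative.

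The called probes over all genes changed from 5697 to 15 with slide as a fixed block and to 12803 with array weights for the challenge, and to 2051 without DMSO replicate 2 and 10574 without BA+DMSO replicate 3. They changed from 11602 to 3268 on the second slide alone and to 1783 with brightness as a covariate for the challenge under rapamycin. The interaction went from 0 to 3058 without BA+DMSO replicate 2.

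Reversals for rapamycin under challenge were Cfd at 0.092 (percentile over probes detected on all arrays) and 0.26 (array weights), Retn at -0.15 (mean of its probes) and -0.17 (brightness), Plin1 at -0.072 (brightness), and Cfd at 0.33 and Adipoq at 0.15 (title date as a random block). For rapamycin alone they were Cidec at 0.11 (mean of probes), Retn at 0.15 (slide fixed), Lpl at -0.016 (slide random) and Plin1 at -0.036 (array weights). For the interaction they were Cidec at -0.20 (mean of probes), Retn at -0.093 (slide fixed), Pparg at 0.067 (array weights), and Cfd at -0.023, Plin1 at -0.23 and Cidec at -0.23 (brightness). Lepr was -0.22 for the challenge (mean of probes) and Cpt1b -0.015 for the challenge under rapamycin (brightness).

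With single arrays left out, Pparg ran from -0.39 to 0.050 for the challenge and Fabp4 from -0.93 to 0.32 for the challenge under rapamycin. For rapamycin under challenge, Cfd ran from -0.83 to 0.73, Plin1 from -0.36 to 0.88, Fabp4 from -1.17 to 0.080, Adipoq from -1.30 to 0.79, Cidec from -1.30 to 0.41 and Retn from -0.50 to 0.56. For rapamycin alone, Cfd ran from -0.88 to 0.24, Plin1 from -0.43 to 0.52, Lpl from -0.18 to 0.28, Fabp4 from -0.051 to 0.38, Adipoq from -0.46 to 0.81, Cidec from -1.29 to 0.14 and Retn from -0.61 to 0.27. For the interaction, Pparg ran from -0.72 to 0.018, Cfd from -0.49 to 1.07, Plin1 from -0.38 to 0.86, Adipoq from -1.43 to 0.67, Cidec from -0.72 to 1.00 and Retn from -0.21 to 0.84.

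Replicates 2 and 3 of DMSO and of rapamycin share a number and 1 date in their titles. The date is the same for both numbers, and the difference between numbers 2 and 3 correlated at -0.07 between the groups over 27801 probes, so the numbers were not taken as pairs. With the number as a replicate block, 0 of 8 genes and 1 probe in all were called for rapamycin alone.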
